A study of Mus musculus with 5 samples.

Results

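Gbx2, Lhx9, Tcf7l2, Rora, Dbx1, Barhl2 and Nkx2-2 are transcription factors of the diencephalon, the caudal part of the forebrain that forms the thalamus, the prethalamus and the boundary between them. They were taken by gene symbol, and each of the 7 had 1 row among the 27919 rows of the count table that carry a symbol. Levels were read from polyadenylated RNA of whole mouse forebrain at E12.5, in 5 untreated C57BL/6 libraries, 3 labelled EedcKO and 2 labelled wild type. The submitters describe the groups as littermates. The protein made from Eed belongs to the core of Polycomb repressive complex 2, which methylates histone H3 at lysine 27 at silenced developmental genes. The mutant goes by the name EedcKO in the labels, and the driver of the deletion and the deleted part of Eed were not stated in the sources used here. No label ties each library to its own embryo, so the p-values cover only the spread among these libraries, which may in part be technical.

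In the embryo the thalamus and prethalamus develop on either side of a signalling ridge, the zona limitans intrathalamica, which secretes Sonic hedgehog. Behind the ridge, progenitors that use Olig3 and Dbx1 give rise to glutamatergic thalamic neurons that switch on Gbx2, Lhx2, Lhx9, Tcf7l2 and later Rora, while a thin strip next to the ridge and the ridge's flanks express Nkx2-2, a homeodomain factor that hedgehog signalling induces. Barhl2 is needed for the ridge to form and marks territory around it. None of the factors, Gbx2 included, is restricted to the thalamus, so whole-forebrain counts do not place their RNA there. Dbx1 also marks septal and ventral pallial progenitors, Lhx9 and Barhl2 other parts of the diencephalon and the midbrain, and Nkx2-2 the hypothalamus.

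The proximal promoters of the 3 factors whose EedcKO and wild-type libraries did not overlap are shown because Polycomb repressive complex 2 typically occupies CpG-rich promoters. Sequences are those of RefSeq on GRCm38.p6 (mm10), from 250 bases before to 50 bases after a start site, 5′ to 3′ on the gene's strand, with each CG dinucleotide in capitals. All 7 symbols matched, with 8 windows. The Gbx2 window is chr1:89931127-89931426 (minus strand), that of Barhl2 chr5:106458117-106458416 (minus strand), and that of Nkx2-2 chr2:147186353-147186652 (minus strand), the last inside the longer Nkx2-2 gene of GENCODE.
Gbx2: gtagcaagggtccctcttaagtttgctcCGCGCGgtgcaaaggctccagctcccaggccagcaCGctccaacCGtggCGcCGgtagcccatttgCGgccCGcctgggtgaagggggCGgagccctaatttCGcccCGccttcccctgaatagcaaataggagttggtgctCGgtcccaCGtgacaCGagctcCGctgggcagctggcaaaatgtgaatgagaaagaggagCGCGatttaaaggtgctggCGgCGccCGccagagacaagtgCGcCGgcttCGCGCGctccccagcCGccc
Barhl2: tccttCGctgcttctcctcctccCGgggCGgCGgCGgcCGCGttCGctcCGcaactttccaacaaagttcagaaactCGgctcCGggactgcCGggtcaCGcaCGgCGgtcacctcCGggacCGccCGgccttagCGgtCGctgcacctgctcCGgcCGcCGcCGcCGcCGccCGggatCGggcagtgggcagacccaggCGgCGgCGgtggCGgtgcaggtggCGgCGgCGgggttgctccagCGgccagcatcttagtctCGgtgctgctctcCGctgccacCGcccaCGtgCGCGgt
Nkx2-2: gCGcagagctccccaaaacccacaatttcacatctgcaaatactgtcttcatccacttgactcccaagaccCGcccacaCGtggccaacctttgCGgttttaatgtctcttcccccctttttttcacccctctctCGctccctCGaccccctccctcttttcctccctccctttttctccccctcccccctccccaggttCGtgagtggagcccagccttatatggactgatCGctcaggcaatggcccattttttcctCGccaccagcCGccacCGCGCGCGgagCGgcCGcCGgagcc

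The Barhl2 window held 42 CG dinucleotides, the Gbx2 window 27 and the Nkx2-2 window 17, against a median of 7 over 32851 promoter windows. At least 42 were held by 3.03% of all windows, at least 27 by 15.5% and at least 17 by 31.4%. Among the factors whose groups overlapped, the first Tcf7l2 window held 34, Rora 28, Dbx1 15, the second Tcf7l2 window 7 and Lhx9 6. CG number therefore did not separate the factors by how their levels differed. The Lhx9 window and the second Tcf7l2 window lie inside the longer GENCODE genes, as that of Nkx2-2 does. Other start sites of Lhx9 were not examined. Both strands were searched for CTTTGA (a TCF/LEF core, held by 16.0% of windows), TGGGTGGTC (a GLI site, 0.253%) and TAAT (a homeodomain core, 58.0%). CTTTGA occurred once in the Dbx1 window and TGGGTGGTC in no window of the 7 genes. TAAT occurred in the windows of Gbx2, Nkx2-2, Dbx1, Lhx9 and Tcf7l2. A match describes letters and is no binding site.

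Count totals lay between 4820630 and 5026381 per library, and levels are given as CPM (counts after scaling by library size and TMM normalization). A count of 0 allows up to 3 counts, which is 0.610 to 0.632 CPM in these libraries. Eed itself had 404 counts in wild type 1, whereas the library labelled wild type 2 had 238, against 251, 233 and 247 in EedcKO 1, 2 and 3. At Eed that library therefore went against its label. HOX genes, silent in the normal forebrain, had 2 counts together for wild type 1, 134 for the library labelled wild type 2 and 85, 184 and 62 in EedcKO. Every direction below is therefore drawn against a wild-type group in which 1 library has the Eed level of EedcKO. Shh and Gbx1, named after their values were seen, went with that library's label. Shh had 103 counts in it and 124 in wild type 1, against 5, 1 and 3 in EedcKO 1, 2 and 3. Gbx1 had 196 and 182, against 17, 8 and 16. Both wild-type libraries and EedcKO 1 were female by Xist and Y-linked counts, and EedcKO 2 and 3 male. The library labelled wild type 2 also held the most RNA of skin-type keratin epithelium (222 CPM over 7 genes, against 11.1 to 21.9 in the other libraries) and of striated muscle (70.5 against 5.79 to 10.4 CPM). Telencephalic markers were present throughout (1123 to 1479 CPM summed over 10 genes). In bulk tissue, fewer cells of a type and less RNA per cell cannot be told apart.

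Of the 7 factors, Nkx2-2 was not detected in any EedcKO library, Gbx2 lay far below wild type in all of them, and Barhl2 was lower by a smaller and even step. Tcf7l2 was lower on average with overlapping groups, and Lhx9, Rora and Dbx1 had group means close to those of wild type. Enough counts for a test were present for 6 factors, and 1 of them, Barhl2, fell in edgeR's quasi-likelihood test at an adjusted p under 0.05. Over the same fit 448 of 13989 genes passed (3.20%), 303 of them lower in EedcKO (2.17%). Groups did not overlap for 3 of the 7 factors, or 2 of the 6 tested, against 33.8% of all genes tested, so that share is near the background. All 6 log2 fold changes were below 0, as were 48.4% of those of all genes tested. Their median was -0.38 against 0.01 for all genes tested. Those of Lhx9 (-0.14), Rora (-0.11) and Dbx1 (-0.01) lay near 0 and changed sign in some alternatives. With embryo sex as a covariate the genotype effect rests on EedcKO 1 against the wild type, since no wild-type library was male. The values were then -4.26 for Gbx2, -1.0025 for Tcf7l2, -0.98 for Barhl2, -0.91 for Dbx1, -0.11 for Lhx9 and 0.25 for Rora, and none passed (edgeR adjusted p from 0.217 to 0.911).

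**Figure D1:**
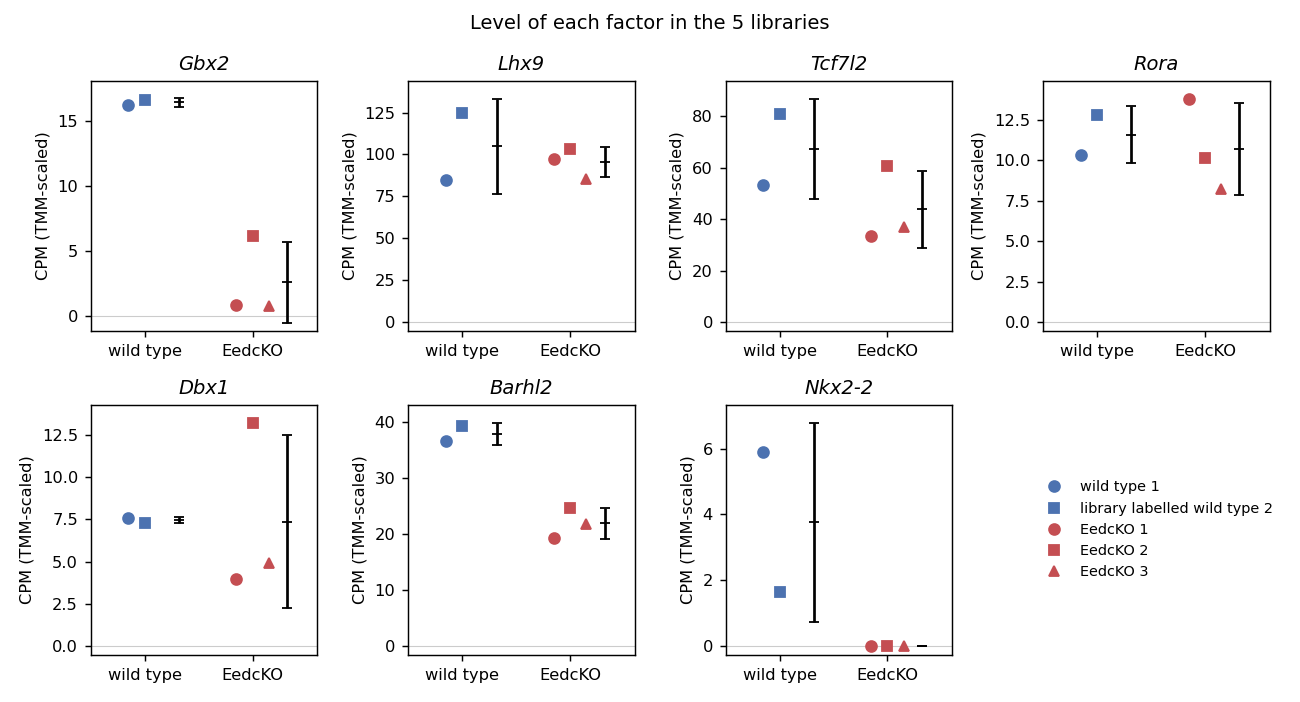
CPM of the 7 factors in each library (points; the shape gives the replicate number), with the group mean and SD (black bars; n = 2 wild type, n = 3 EedcKO). Nkx2-2 is at 0 in the 3 EedcKO libraries, Gbx2 and Barhl2 have groups that do not overlap, and EedcKO 2 is the highest EedcKO library for Gbx2, Tcf7l2, Dbx1, Barhl2 and Lhx9.

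Gbx2 encodes the homeodomain factor that young thalamic neurons need for their identity and for sending axons to the cortex (chromosome 1, 89927956 to 89931179, minus strand, mm10). It had 77 counts for wild type 1, 82 for the library labelled wild type 2, and 4, 30 and 4 in EedcKO 1, 2 and 3. The wild-type libraries differed by less than their counting intervals (60.8 to 96.2 and 65.2 to 102, 95% Poisson), whereas EedcKO 2 (20.2 to 42.8) stood above the interval of EedcKO 1 and 3 (1.09 to 10.2 each). The groups did not overlap. Mean levels were 16.5 ± 0.310 CPM (SD, n = 2) in wild type and 2.62 ± 3.11 CPM (SD, n = 3) in EedcKO, 15.9% of wild type. The log2 fold change was -2.64 (SE 0.71, 95% interval -4.31 to -0.97), which missed the threshold (edgeR adjusted p = 0.104). Without EedcKO 2 it was -4.27 and passed (edgeR adjusted p = 0.0238), and over all 5 libraries it passed with DESeq2 (adjusted p = 0.0112) and limma-voom (adjusted p = 0.0423). In the other 14 of 17 alternatives Gbx2 did not pass, among them the fits without EedcKO 1 (edgeR adjusted p = 0.233) and without EedcKO 3 (0.2785). GENCODE places a non-coding transcript, D130058E05Rik, over Gbx2 on the other strand, and no source used here states whether the counting used strand.

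Nkx2-2 had 28 counts for wild type 1, 8 for the library labelled wild type 2 and 0 in each of EedcKO 1, 2 and 3 (chromosome 2, 147177546 to 147194243, minus strand). The wild-type libraries themselves differed beyond counting error, with intervals of 18.6 to 40.5 and 3.45 to 15.8 counts (95% Poisson). Each 0 allows up to 3 counts, or 3.69 at the upper end of the 95% Poisson interval. Set against 3 counts over the EedcKO group, the 36 wild-type counts as observed give a level 18.0-fold lower in EedcKO. Error in the wild-type counts is left out, so this fold is no full lower bound. The same fold was 7.86 without wild type 1 and 28.5 without the library labelled wild type 2. Nkx2-2 fell below the count filter and had no test in the edgeR fit. With that filter lifted it was called (edgeR adjusted p = 0.0260), as with DESeq2 (adjusted p = 0.00197), but not with a filter of 1 CPM in 2 libraries (edgeR adjusted p = 0.0585). It was also called without the library labelled wild type 2 (log2 fold change -7.83, edgeR adjusted p = 0.0105). In the 3 limma-trend fits on log2 TPM it was not called (limma adjusted p = 0.0771, 0.0883 and 0.0923). Nkx2-2os, an antisense transcript over the same locus, was counted 7 times in wild type 1, against 0 in the 4 remaining libraries.

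Barhl2 encodes a homeodomain factor of the diencephalic boundary and its surroundings (chromosome 5, 106452523 to 106458166, minus strand). Counts were 173 for wild type 1, 193 for the library labelled wild type 2, and 92, 119 and 106 in EedcKO 1, 2 and 3. All 3 EedcKO libraries lay below both wild-type libraries, and within each group the spread was small. Barhl2 fell to 57.7% of its wild-type mean, with 37.9 ± 1.96 CPM (SD, n = 2) in wild type and 21.9 ± 2.71 CPM (SD, n = 3) in EedcKO. The log2 fold change was -0.79 (SE 0.15, 95% interval -1.13 to -0.45, edgeR adjusted p = 0.0361). Its size was stable but its call was not: without wild type 1 the gene passed (-0.86, edgeR adjusted p = 0.0267), and it missed the threshold without the library labelled wild type 2 (-0.73, edgeR adjusted p = 0.0510), without EedcKO 1 (-0.72, 0.0926), without EedcKO 2 (-0.89, 0.0829) or without EedcKO 3 (-0.79, 0.166).

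Tcf7l2 encodes a high-mobility-group factor that carries WNT signals to the genome and that thalamic and habenular neurons keep through life (chromosome 19, 55741820 to 55933654, plus strand). It had 254 counts for wild type 1, 399 for the library labelled wild type 2, and 161, 294 and 181 in EedcKO 1, 2 and 3. EedcKO 2 lay above wild type 1, so the groups overlapped, and the library labelled wild type 2 stood highest, 1.51 times wild type 1 in CPM. Group means were 67.3 ± 19.5 CPM (SD, n = 2) and 43.8 ± 14.8 CPM (SD, n = 3). The log2 fold change of -0.62 had a 95% interval from -1.28 to 0.05 (edgeR adjusted p = 0.323). It was -0.28 without the library labelled wild type 2 and -0.93 without EedcKO 2, and passed in none of these fits.

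Lhx9 encodes a LIM-homeodomain factor of thalamic neurons (chromosome 1, 138825186 to 138848577, minus strand). It had 402 counts for wild type 1, 614 for the library labelled wild type 2, and 466, 499 and 417 in EedcKO 1, 2 and 3. The EedcKO libraries fell between both wild-type libraries, and the gap between those exceeded counting error (intervals 364 to 443 and 566 to 665). The log2 fold change was -0.14 (95% interval -0.53 to 0.25, edgeR adjusted p = 0.757) and 0.18 without the library labelled wild type 2. The lower end of that interval lies above the value for Barhl2.

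Rora encodes the nuclear receptor that thalamic neurons use as they mature (chromosome 9, 68653786 to 69388246, plus strand). Counts were 49 for wild type 1, 63 for the library labelled wild type 2, and 66, 49 and 40 in EedcKO 1, 2 and 3. All 5 counting intervals overlapped. The log2 fold change was -0.11, with a 95% interval from -0.76 to 0.53 (edgeR adjusted p = 0.893), and it was above 0 without the library labelled wild type 2 (0.058) and without EedcKO 3 (0.047).

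Dbx1, a homeodomain factor of thalamic progenitors, had 36 counts in each wild-type library (chromosome 7, 49631499 to 49636849, minus strand). It had 19, 64 and 24 in EedcKO 1, 2 and 3. Near-equal group means of 7.45 ± 0.191 CPM (SD, n = 2) and 7.38 ± 5.10 CPM (SD, n = 3) therefore joined EedcKO libraries on both sides of wild type. EedcKO 2 (49.3 to 81.7, 95% Poisson) lay above the intervals of EedcKO 1 and 3 (11.4 to 29.7 and 15.4 to 35.7). The log2 fold change was -0.01 (95% interval -1.21 to 1.18, edgeR adjusted p = 0.992), or -0.74 without EedcKO 2 (edgeR adjusted p = 0.463).

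**Figure D2:**
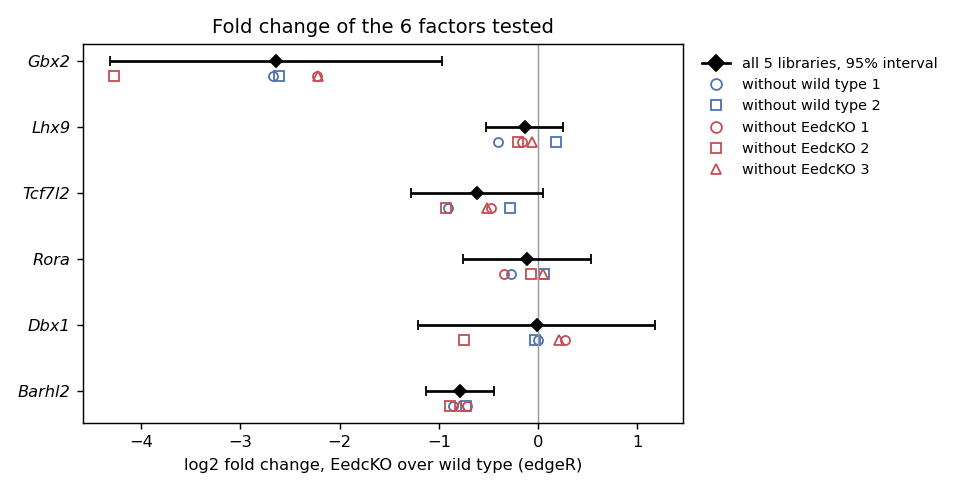
Log2 fold changes of the 6 tested factors (EedcKO over wild type, edgeR; diamonds with 95% intervals) and the same value with each library left out (open symbols). Gbx2 moves from -2.64 to -4.27 without EedcKO 2 and Dbx1 from -0.01 to -0.74, while Barhl2 stays between -0.89 and -0.72.

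Levels can be compared between genes on the deposited TPM, which divide by gene length. In wild type the mean order was Barhl2 (78.7 TPM), Lhx9 (53.1), Tcf7l2 (36.9), Gbx2 (36.3), Dbx1 (17.1), Nkx2-2 (6.28) and Rora (4.26). Within each wild-type library Barhl2 was above Lhx9, and Lhx9 above Tcf7l2. The order of Tcf7l2 and Gbx2, and that of Nkx2-2 and Rora, changed between the wild-type libraries. In EedcKO the mean order was Lhx9 (48.6), Barhl2 (45.7), Tcf7l2 (24.2), Dbx1 (17.1), Gbx2 (5.82) and Rora (3.97), with Nkx2-2 listed at 0. Of neighbours in that order, Barhl2 stood above Lhx9 in EedcKO 3, and Rora above Gbx2 in EedcKO 1 and 3. The other neighbours kept the mean order within each EedcKO library. Gbx2, level with Tcf7l2 in wild type, was thus at 1.87 and 1.81 TPM in EedcKO 1 and 3, where Tcf7l2 had 18.7 and 20.3 TPM. In EedcKO 2 these levels were 13.8 and 33.5 TPM.

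The uneven EedcKO group was followed across the other listed genes, as the difference in log2 CPM between EedcKO 2 and the mean of EedcKO 1 and 3. It was 2.41 for Gbx2, 1.498 for Dbx1, 0.78 for Tcf7l2, 0.26 for Barhl2, 0.18 for Lhx9 and -0.07 for Rora. Over all genes tested its median was 0.00411 and it reached 1 in 0.944%. Olig3, the thalamic progenitor factor, had 34 counts in EedcKO 2 and 4 each in EedcKO 1 and 3, against 12 for wild type 1 and 29 for the library labelled wild type 2. Pou4f1, a factor of habenular neurons, had 53 counts in EedcKO 2 against 18 and 20, and Irx2, a factor of territory behind the zona limitans, 30 against 4 and 6. These 3 genes were chosen after their values were seen, and most genes of their lists did not reach a difference of 1. It was reached by 1 of 11 tested caudal thalamic genes (median -0.03, with Nkx6-2 at -0.95 and Ntng1 at -0.49) and 2 of 9 habenula and pretectum genes (median 0.30, with Etv1 at -0.80). Of 8 zona limitans and hedgehog genes 2 reached it (median 0.45). Shh in that list was at -0.98, on only 5, 1 and 3 counts in EedcKO 1, 2 and 3. Several genes of the telencephalic midline also stood above the mean of EedcKO 1 and 3 in EedcKO 2. A difference of 1 was reached by 5 of 7 tested choroid plexus and cortical hem genes and 5 of 11 WNT genes. Among these the choroid plexus transthyretin Ttr had 291 counts in EedcKO 2, 102 in EedcKO 1 and 0 in EedcKO 3, and the hem ligand Wnt3a 69, 35 and 0. Each choroid plexus, hem or WNT gene that reached 1 had EedcKO 3 lowest of the EedcKO libraries and EedcKO 1 between. For Gbx2, by contrast, EedcKO 1 and 3 both had 4 counts. In each of those choroid plexus, hem and WNT genes, the library labelled wild type 2 stood above EedcKO 2. No telencephalic marker of 10 tested, no prethalamic gene of 13 and no rostral thalamic gene of 5 reached a difference of 1. These tallies cover only genes higher in EedcKO 2. The telencephalic marker Lhx8 was at -2.31, with 35, 1 and 4 counts in EedcKO 1, 2 and 3. Nkx2-1, of the hypothalamus list, was at -2.52, with 331, 7 and 6 counts. For both, named after their values were seen, EedcKO 1 stood apart. The part of the choroid plexus, hem and WNT genes in the levels of Gbx2 and Dbx1 was not tested.

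**Figure D3:**
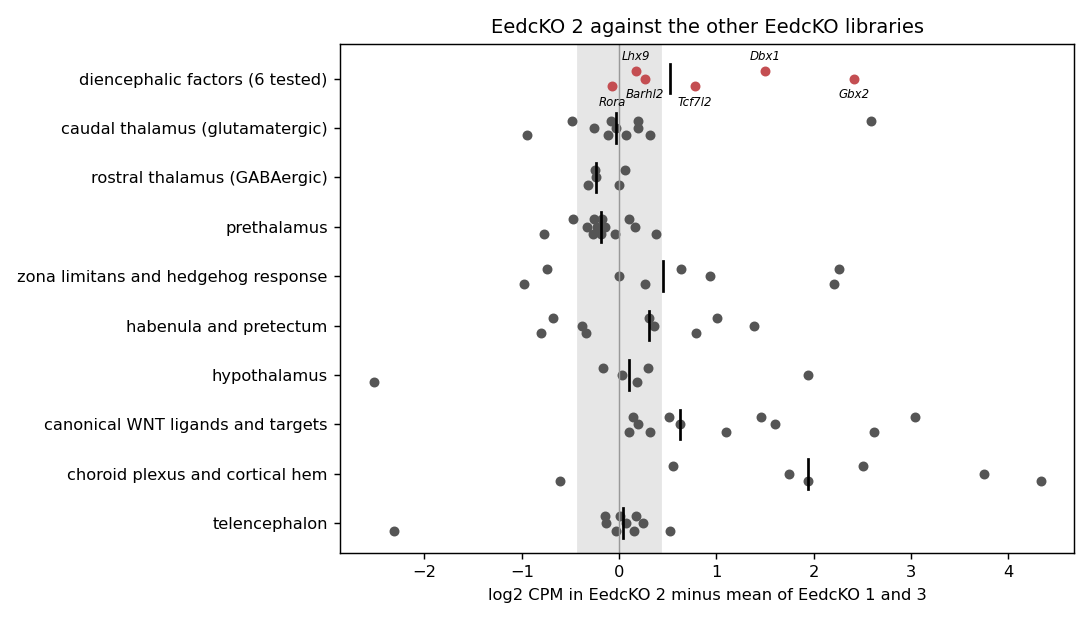
Log2 CPM in EedcKO 2 minus the mean of EedcKO 1 and 3 for each tested gene of each list (points), with list medians (black bars) and the range holding 90% of all genes tested (grey). Gbx2 (2.41) and Dbx1 (1.498) lie far to the right, while Rora, Lhx9 and Barhl2 lie in the grey range. To the right also lie 5 of 7 choroid plexus and hem genes, for which EedcKO 3 was lowest and EedcKO 1 lay between.

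Of 68 tested other genes of the diencephalic, family and WNT lists, 18 passed (6 higher, 12 lower, 26.5% against 3.20% of all genes tested). The lists hold genes that the telencephalon shares, and were drawn up with earlier results of these data known. Their median log2 fold change was -0.70. The count was 5 without EedcKO 2 and 0 without EedcKO 3, and 19 to 27 without each of the other libraries.

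Around the zona limitans, 2 of 8 tested genes fell and none rose. Shh, the ridge's signal, had 124 and 103 counts in the wild-type libraries and 5, 1 and 3 in EedcKO (log2 fold change -5.19, edgeR adjusted p = 0.00455). Gli1, a direct read-out of hedgehog signalling, had 158 and 120 against 53, 38 and 18 (-1.93, edgeR adjusted p = 0.0412). Shh also comes from the ventral telencephalon and hypothalamus, so whole-forebrain counts do not place the fall at the ridge. The tested hypothalamus list of 6 had 1 decrease, in Otp, a factor of neuroendocrine neurons, with 428 counts for wild type 1, 85 for the library labelled wild type 2 and 0, 1 and 1 in EedcKO (edgeR adjusted p = 0.0296). Like Nkx2-2, Otp was higher in wild type 1 than in the library labelled wild type 2 and at most 1 count in every EedcKO library.

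In the prethalamic list 6 of 13 tested genes fell and 2 rose. The largest decreases were in the zinc-finger factor Fezf1 (-2.71, edgeR adjusted p = 0.00850), the endopeptidase Ecel1 (-2.64, 0.0267) and the LIM-homeodomain factors Lhx5 (-1.82, 0.00937) and Lhx1 (-1.68, 0.0112). The genes that rose were Fezf2 (0.87) and the progenitor factor Pax6 (0.65), named after their values were seen, and both are also strong in the cortical primordium.

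The caudal thalamic list moved in both directions, with 3 of 11 tested genes higher and 1 lower. The proneural factors Neurog1 (log2 fold change 1.48, edgeR adjusted p = 0.0276) and Neurog2 (0.79, 0.0202) and the vesicular glutamate transporter Slc17a6 (0.63, 0.0282) rose. All 3 are also used by the cortical primordium. Prox1, a homeodomain factor of thalamic and other neurons, fell (-1.14, 0.0495). In the habenula and pretectum list the proneural-type factor Bhlhe22 rose (1.20, edgeR adjusted p = 0.0156), and no other of 9 tested genes passed.

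Among 7 tested relatives of the factors 1 passed. Gbx1, the paralog of Gbx2 and a marker of ventral telencephalic neurons, had 182 and 196 counts in the wild-type libraries and 17, 8 and 16 in EedcKO (-3.78, edgeR adjusted p = 0.00440). Both Gbx genes had even wild-type levels, but EedcKO 2 was the lowest EedcKO library for Gbx1 and the highest for Gbx2. The relatives of Tcf7l2 did not pass, with Tcf7l1 at 0.59 (edgeR adjusted p = 0.131). None of 11 WNT ligands and targets passed either. No WNT gene had an unadjusted edgeR p under 0.05, and DESeq2 and limma-voom called 0. The smallest p belonged to Sp5 (-1.39, edgeR adjusted p = 0.365) and Wnt3 (-0.86, edgeR adjusted p = 0.404). Summed over the WNT genes, CPM came to 466 for wild type 1, 980 for the library labelled wild type 2 and 534, 712 and 472 for EedcKO 1, 2 and 3. Its 2 highest libraries were the highest of their groups for Tcf7l2 and Lhx9 as well, and the part of this in the levels of both factors was not tested.

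**Figure D4:**
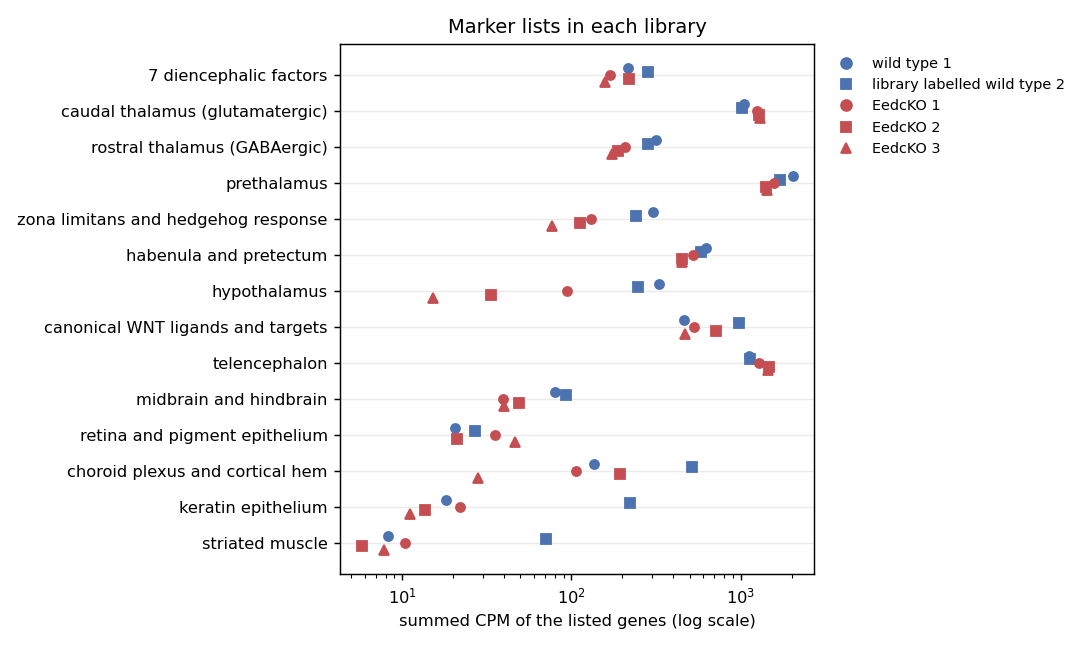
Summed CPM of each marker list in each library (log axis; blue wild type, red EedcKO). The hypothalamic and zona limitans lists are lower in all 3 EedcKO libraries than in both wild-type libraries. Their largest parts in the wild-type libraries are Nkx2-1 (182 and 147 CPM) and Ptch1 (223 and 139 CPM), neither of which passed (edgeR adjusted p = 0.406 and 0.0572). The lists hold genes that the telencephalon shares, so these sums do not place a fall within the forebrain. Keratin epithelium, striated muscle and choroid plexus genes are highest in the library labelled wild type 2.

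Genes with the pattern most like each factor were found as the smallest root mean square distance between centred log2 CPM over the 5 libraries, among 13229 tested genes. For Barhl2 they included the neuronal elongation factor Eef1a2 (distance 0.0306) and the growth-arrest gene Gas7 (0.0544). Eef1a2 had 407 and 465 counts in the wild-type libraries and 211, 282 and 243 in EedcKO, the same order of libraries as Barhl2. For Gbx2 no gene was as close: Rsph4a (0.585), Nwd2 (0.628) and the transcription factor Onecut3 (0.735) were nearest. Nwd2 had 47 and 66 counts against 9, 31 and 9. The nearest to Tcf7l2 were Rnls (0.103), Sytl1 (0.119) and Fam163b (0.122), all with 5 to 22 counts a library. Dbx1 was nearest to Aif1 (0.220), A2m (0.229) and Xlr3b (0.260), Lhx9 to Slc37a2 (0.0410), Ube2d-ps (0.0459) and Mrpl36 (0.0461), and Rora to Phex (0.0265), Arap2 (0.0640) and Thbs1 (0.0710). Factors with flat profiles have many close genes at this measure.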

How the data were processed

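Per the submitters' processing notes, HISAT2 2.2.0 was used and the build was mm10. No source used here states the counting tool, its use of strand or the annotation. Deposited by the authors were whole-number counts per gene, not normalized, and a table of TPM, which divides by gene length and sums to the same total in every library. Rows with no symbol (28277, 2.01% to 2.16% of counts) stayed out of library sizes and tests. The tables held 0 columns of other samples.

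The count analysis used edgeR 4.0.16 under R 4.3.3 (filterByExpr, TMM, glmQLFit with robust estimation, glmQLFTest on group), with Benjamini-Hochberg adjustment over 13989 genes and a threshold of 0.05. The standard error is the log2 fold change over the square root of F. Poisson intervals (95%) and floors cover counting error only. On counts simulated for 13831 genes, the fit found 39.4% of genes changed 1.5-fold, 65.7% changed 2-fold and 90.6% changed 4-fold. Per gene, the chi-square between libraries was 2.62 to 11.0 times that of sampling noise, so none was a duplicate. Coordinates are from GENCODE M21 (mm10), 1-based.

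The factors, lists and tests were chosen with earlier results of these data known. Named genes were the 7 factors, in each list up to 4 called genes of largest change or else the 2 with the smallest p, and the 3 genes most like each tested factor (mean log2 CPM of at least 1, prior count 2, predicted genes left out). Some results under this rule are not reported here. Alternatives were DESeq2 1.42.0, RLE factors, no scaling beyond library size, limma-voom and limma-trend on log2 TPM (limma 3.58.1, pseudocounts 1 and 0.1, with and without a filter), robust estimation off, no count filter, 1 CPM in 2 libraries, embryo sex, the replicate number as a block, and each library left out. A fit that leaves 1 wild-type library assumes that it varies like EedcKO.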

Additional observations from a re-analysis of the deposited data

How the results depend on the processing

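Over 17 alternatives the log2 fold change of Barhl2 stayed between -0.98 and -0.72 and that of Gbx2 between -4.27 and -2.21. Barhl2 kept its call in 8 of them and lost it with limma-trend on TPM (-0.78 with a pseudocount of 1, -0.79 with 0.1, -0.78 without a filter), with embryo sex as a covariate (-0.98), with the replicate block (-0.79) and in 4 of 5 fits that left out a library (-0.89 to -0.72). Gbx2 gained a call with DESeq2 (-2.65), limma-voom (-3.23) and without EedcKO 2 (-4.27 to -2.21 over libraries left out). Tcf7l2 passed in none. Signs turned for Dbx1 (0.034 with the replicate block, -0.74 to 0.27 over libraries left out), for Rora (0.040 with the block, 0.25 with embryo sex, -0.35 to 0.058 over libraries left out) and for Lhx9 (-0.41 to 0.18 over libraries left out), none of them called. The fold for Nkx2-2, set against 3 counts over the EedcKO group, ran from 7.86 to 28.5.

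Of the 7 factors, 3 were called with DESeq2 (Nkx2-2 among them), 2 with limma-voom, 2 with no count filter, and 0 with TPM, the replicate block or embryo sex, where 3 had an unadjusted p under 0.05. Leaving out a library gave 0 to 1: Barhl2 without wild type 1, Nkx2-2 without the library labelled wild type 2 and Gbx2 without EedcKO 2. Calls among the other listed genes, 18 in the edgeR fit, numbered 9 with TPM and a pseudocount of 0.1, 2 with TPM unfiltered, 0 with the block, 0 with embryo sex and 0 to 27 over libraries left out. All genes called, 448 in the edgeR fit, were 675 with library size alone, 203, 152 and 42 with TPM (pseudocount 1, 0.1, unfiltered), 0 with the replicate block, 0 with embryo sex and 0 to 1012 over libraries left out. In the settings that called 2 or 3 of the factors, all genes called were 662 with DESeq2, 398 with limma-voom and 648 with no count filter. Unadjusted p were under 0.05 for 2169 genes with the block and 1611 with embryo sex in edgeR, and for 1887 without EedcKO 3. The block leaves 1 residual degree of freedom, no wild-type library was male, and the cause of the other losses was not tested. Same-numbered libraries deviated together with r = -0.04 and 0.13, and the labels do not say that a number marks a litter. Depth limits Nkx2-2 (0 to 28 counts a library), Gbx2 (4 to 82), Dbx1 (19 to 64) and Rora (40 to 66).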
